A study of Glycine max with 21 samples.

Results

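Glyma03g32900 is the soybean gene known as GmSALT3 or GmCHX1, a cation/proton exchanger gene, and it was taken by its gene model ID alone, as 1 of the 62537 gene models counted and 1 of the 36691 that passed the filter on low counts. The RefSeq gene table of the assembly Glycine_max_v4.0 lists it as CHX1, a protein-coding gene on chromosome 3, with GmSALT3 and ST1 as synonyms. That assembly is not the build on which the reads were counted, so no position is given.

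Exchangers of the CHX family are membrane proteins thought to move sodium or potassium in exchange for protons. In soybean, the GmSALT3 protein lies in the endoplasmic reticulum of cells associated with the root vascular tissue, and cultivars with the intact allele hold back sodium and chloride from the shoot under salt and keep their yield better on saline soil. Williams 82, the reference cultivar and the only genotype sampled here, carries a disrupted allele in which a retrotransposon interrupts the coding sequence. The values below are therefore transcript levels of the disrupted allele, and a count summed over the gene model does not show whether reads fell before or after the insertion.

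The study sequenced RNA from roots of Williams 82 seedlings at the V1 stage, the stage of the first trifoliolate leaf. Salt roots came from seedlings placed in 100 mM NaCl, and dehydration roots from seedlings taken off the moist germination paper and left in air, each sampled after 1, 6 and 12 hr. Control roots were sampled at 0 hr only, so every comparison with control also spans the hours of the treatment. There were 3 libraries in each of the 7 groups, 21 in all, described in the study's methods as biological replicates. In bulk root tissue, fewer cells of a type and less RNA per cell cannot be told apart.

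Library totals ran from 3752853 to 28177205 counts (median 6956557), and the ranks of gene counts correlated between replicates at 0.886 to 0.968. The libraries were spread over 3 sequencing lanes, numbered 2, 3 and 4. The 6 salt libraries of 1 and 6 hr all came from lane 2, which held no control or dehydration library, so at those times no comparison could be made within a lane. The 3 salt libraries of 12 hr came from 1 lane each and were the only link between lane 2 and the others in a fit with lane as a term. All control and dehydration libraries came from lanes 3 and 4.

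GmSALT3 was expressed in every root library, and its level was lower under salt than before it. The level is given as CPM, the count divided by the library total scaled with its TMM factor and set to a common total. Averaged over the 3 times, salt roots held 0.422 times the control level, and dehydration roots did not pass the test against control. This average was compared after the values were seen, and the call was lost with lane as a term (log2 fold change -1.04, adjusted p 0.491, edgeR) and without control replicate 2 (-0.87, adjusted p 0.131). At single times, GmSALT3 was called as differentially expressed (DE) at 12 hr of salt, against control and against 12 hr of dehydration, and at no other time in either stress.

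In salt roots, the 3 libraries of 1 hr held 13.7, 21 and 16.8 CPM (411, 150 and 118 counts). At 6 hr of salt the values were 16.4, 12.7 and 37.4 CPM (80, 51 and 523 counts), and at 12 hr of salt 19.2, 20.3 and 23.1 CPM (89, 190 and 195 counts). Salt replicate 3 of 6 hr stood above the other salt libraries, the next of which reached 23.1 CPM, and it was the only salt library inside the range of the controls. It also had the lowest share of uniquely mapped reads that the study reported for any of its libraries.

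In dehydration roots, the libraries of 1 hr held 52.3, 26.4 and 21.9 CPM (278, 124 and 124 counts), those of 6 hr 28.4, 28.9 and 36.2 CPM (258, 241 and 279 counts), and those of 12 hr 40.4, 38.1 and 68.2 CPM (272, 147 and 265 counts). Control roots held 35.4, 69.3 and 38.0 CPM (258, 611 and 341 counts). Dehydration libraries thus lay between 21.9 and 68.2 CPM, 4 of 9 below every control, whereas salt libraries lay between 12.7 and 37.4 CPM, 8 of 9 below every control and 8 of 9 below every dehydration library of the same time.

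**Figure D1:**
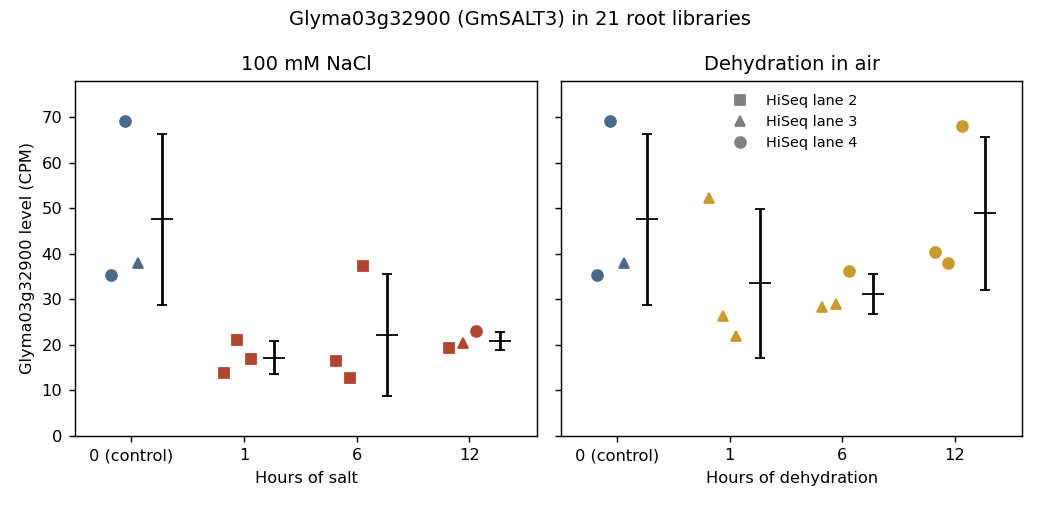
Level of GmSALT3 in CPM (vertical axis) in each of the 21 root libraries by hours of treatment, salt in the left panel and dehydration in the right panel, with the same 3 control libraries at 0 hr in both. Points are libraries, the marker shape gives the sequencing lane, and bars are group means ± SD (n = 3). Salt libraries sat between 12.7 and 37.4 CPM and dehydration libraries between 21.9 and 68.2 CPM.

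The deposited values normalized with DESeq showed the same order of groups. In salt roots the values of 1 hr were 96.1, 148 and 119, those of 6 hr were 117, 89.9 and 260, and those of 12 hr were 137, 145 and 164. In dehydration roots the values of 1 hr were 366, 186 and 157, those of 6 hr were 199, 200 and 247, and those of 12 hr were 280, 264 and 482. Control roots had 247, 483 and 263. On this scale too, salt replicate 3 of 6 hr was the single salt library that reached the control range.

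Ordered by mean level, 12 hr of dehydration came highest with 48.9 ± 16.7 CPM (SD, n = 3 in every group), next to control roots with 47.6 ± 18.9 CPM. Roots after 1 and 6 hr of dehydration followed with 33.5 ± 16.4 and 31.2 ± 4.39 CPM. The salt groups were the lowest, with 22.2 ± 13.3 CPM at 6 hr, 20.9 ± 2.03 CPM at 12 hr and 17.2 ± 3.64 CPM at 1 hr. None of the 6 pairs of neighbours in this order differed beyond the spread of the libraries, with adjusted p between 0.417 and 0.991 (edgeR quasi-likelihood test, Benjamini-Hochberg adjustment over all tested genes), and every such pair overlapped.

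The groups differed in how tightly their replicates agreed. The coefficient of variation in the salt groups was 21.2%, 60.1% and 9.74% after 1, 6 and 12 hr. In the dehydration groups it was 48.8%, 14.1% and 34.2% after the same hours, and in controls 39.7%. Counting error alone, averaged per group, came to 5.31% to 10.6%, and at 12 hr of salt the spread of 9.74% was close to the counting error of 8.49%. Over all groups the biological coefficient of variation of GmSALT3 was 32.6%, and 67.4% of the tested genes varied less. A single library carried much of the spread in 4 groups, namely control replicate 2, dehydration replicate 1 of 1 hr, dehydration replicate 3 of 12 hr and salt replicate 3 of 6 hr, the last 0.91 above its group mean on the log2 scale.

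The comparisons with control ask whether either stress changed GmSALT3 at a given hour. Below, a gene is called DE at an adjusted p under 0.05 and a change of at least 2-fold. At 12 hr of salt GmSALT3 was downregulated by this rule, at 20.9 ± 2.03 CPM against 47.6 ± 18.9 CPM in controls, with no overlap between the libraries. The log2 fold change was -1.19 (SE 0.39, 95% interval -2 to -0.38), or 0.439 of the control level, with an adjusted p of 0.0421 (edgeR). Of all tested genes 12.4% were called at 12 hr of salt and 37.3% had libraries that did not overlap, and 15.5% had a smaller p-value than GmSALT3. The call was lost when 7 of the 21 libraries were left out in turn, most clearly without control replicate 2, the highest control, where the log2 fold change was -0.81 with an adjusted p of 0.198 (edgeR). The others were without control replicate 3, dehydration replicate 2 of 6 hr, salt replicate 3 of 1 hr or any of the 3 salt libraries of 12 hr, with adjusted p of 0.0502 to 0.12. It was also lost with lane as a term (-1.06, adjusted p 0.148).

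At 1 hr of salt GmSALT3 held 17.2 ± 3.64 CPM, against 47.6 ± 18.9 CPM in controls, again with no overlap. The log2 fold change was -1.48 (SE 0.39, 95% interval -2.29 to -0.67), the largest in size of the 6 comparisons with control, yet the adjusted p of 0.0597 (edgeR) missed the threshold. At this hour 1.6% of the tested genes were called and 20.3% had libraries that did not overlap, and 2.14% had a smaller p-value. At 1 hr GmSALT3 thus stood nearer to the front of the genes ordered by p-value than at 12 hr, where it was called. It was called at 1 hr with DESeq2's Wald test (-1.46, adjusted p 0.0111), and in edgeR without salt replicate 3 of 6 hr (adjusted p 0.0248) or dehydration replicate 1 of 1 hr (adjusted p 0.0461). With lane as a term the log2 fold change was -1.23, with an SE of 0.72 and an adjusted p of 0.805.

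At 6 hr of salt GmSALT3 held 22.2 ± 13.3 CPM, against 47.6 ± 18.9 CPM in controls, and salt replicate 3 overlapped the controls. The log2 fold change was -1.07 (SE 0.38, 95% interval -1.88 to -0.26), with an adjusted p of 0.0738 (edgeR), while 9.66% of the tested genes were called. Without salt replicate 3 of 6 hr it was -1.71 with an adjusted p of 0.00722 (edgeR), and GmSALT3 was then called. Of the 21 fits without 1 library, this was the only 1 with a call. Other fits moved the change the opposite way. It was -0.70 without control replicate 2 (adjusted p 0.299, edgeR), and -0.81 or -0.92 without salt replicate 2 or 1 of 6 hr. With salt replicate 3 of 6 hr kept, GmSALT3 was called by DESeq2's Wald test (-1.07, adjusted p 0.0448) and by limma on log2 normalized values plus 1 (-1.17, adjusted p 0.0477). With lane as a term the log2 fold change was -0.83, with an SE of 0.72 and an adjusted p of 0.693. Salt replicate 3 of 6 hr had the highest count of GmSALT3 among the 9 salt libraries, 523. Its library total was 13759153 counts, against 5259475 and 4202958 in replicates 1 and 2 of 6 hr, so the raw counts are not comparable without scaling.

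Under dehydration GmSALT3 was called at no hour. It held 33.5 ± 16.4 CPM at 1 hr of dehydration, against 47.6 ± 18.9 CPM in controls, a log2 fold change of -0.50 (SE 0.38, 95% interval -1.3 to 0.29) with an adjusted p of 0.472 (edgeR), where 2.59% of the tested genes were called. At 6 hr of dehydration the log2 fold change was -0.61 (SE 0.38, 95% interval -1.41 to 0.18) with an adjusted p of 0.465 (edgeR), where 2.03% were called. At 12 hr of dehydration it was 0.04 (SE 0.38, 95% interval -0.76 to 0.83) with an adjusted p of 0.991 (edgeR), where 2.01% were called. These intervals still hold declines of more than 2-fold at 1 and 6 hr, so the misses do not show that dehydration left the gene at the control level.

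**Figure D2:**
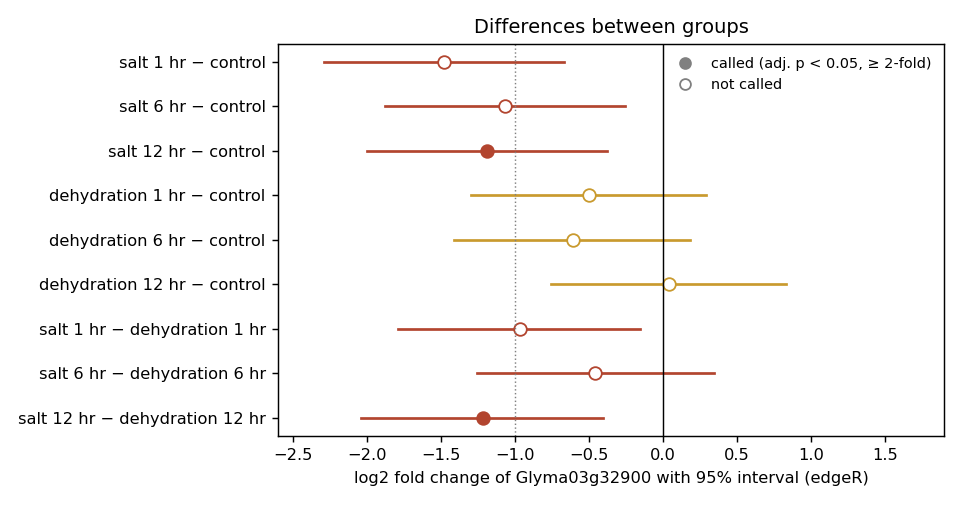
Log2 fold change of GmSALT3 (horizontal axis) in the 6 comparisons with control and the 3 comparisons of salt with dehydration, with 95% intervals from edgeR. Filled points were called DE, and the dotted line marks a 2-fold decline. The 2 filled points are 12 hr of salt against control (-1.19) and 12 hr of salt against 12 hr of dehydration (-1.22), and all salt comparisons lie below 0.

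Salt and dehydration were next compared at the same hour, which leaves the hours since the start of treatment equal on both sides. At 12 hr, salt roots held 20.9 ± 2.03 CPM, against 48.9 ± 16.7 CPM in dehydration roots, and the libraries did not overlap. The log2 difference was -1.22 (SE 0.39, 95% interval -2.04 to -0.41), 0.428 of the dehydration level, with an adjusted p of 0.0411 (edgeR), and GmSALT3 was called. In this comparison 11.6% of the tested genes were called and 35% had libraries that did not overlap. The call was lost without any 1 of these 6 libraries, most clearly without dehydration replicate 3, the highest of its group (-0.90, adjusted p 0.143, edgeR), and without salt replicate 3 of 1 hr (adjusted p 0.0502). It was also lost with lane as a term (-1.0, adjusted p 0.239).

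At 1 hr, salt roots held 17.2 ± 3.64 CPM, against 33.5 ± 16.4 CPM in dehydration roots, with no overlap, as in 16.3% of the tested genes. The log2 difference was -0.97 (SE 0.39, 95% interval -1.79 to -0.16) with an adjusted p of 0.446 (edgeR). In that comparison 0% of the tested genes were called by edgeR, although 3637 had an unadjusted p under 0.05, GmSALT3 among them with 0.0218, and the alternatives, DESeq2 included, called between 0 and 86 genes. At 6 hr, salt roots held 22.2 ± 13.3 CPM, against 31.2 ± 4.39 CPM in dehydration roots, a log2 difference of -0.46 (SE 0.38, 95% interval -1.26 to 0.34) with an adjusted p of 0.417 (edgeR), where 14.7% were called. Without salt replicate 3 of 6 hr this difference was -1.10 with an adjusted p of 0.049 (edgeR), and GmSALT3 was then called. Without salt replicate 2 or 1 of 6 hr the difference was -0.20 (adjusted p 0.778, edgeR) or -0.31 (adjusted p 0.668). With lane as a term it was -0.34, with an SE of 0.72 and an adjusted p of 0.855.

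Since the 3 salt groups lay close together, their average was also compared, a choice made after the values were seen. The average of salt lay below control by a log2 fold change of -1.25 (SE 0.29, 95% interval -1.86 to -0.63) with an adjusted p of 0.0117 (edgeR), where 7.35% of the tested genes were called. The average of dehydration differed from control by -0.36 (SE 0.3, 95% interval -1 to 0.27, adjusted p 0.599), where 2.86% were called. Salt lay below dehydration by -0.89 (SE 0.22, 95% interval -1.35 to -0.42, adjusted p 0.00651), which is 0.541 of the dehydration level and so short of the 2-fold limit, and 11% of the tested genes were called there. Without control replicate 2 the salt average was no longer called against control (-0.87, adjusted p 0.131), and without salt replicate 3 of 6 hr it was called against dehydration (-1.10, adjusted p 0.000697). With lane as a term the log2 fold change of salt from control was -1.04 with an SE of 0.57 and an adjusted p of 0.491, and 0.0899% of all tested genes were then called. That of salt from dehydration was -0.77 with an SE of 0.52 and an adjusted p of 0.528, where 0.0191% were called.

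Exact two-sided permutation tests on the log2 CPM of the libraries were run as well, over all hours together. This pooling too was chosen after the values were seen, and the tests use the same libraries as the averages, so they are no separate evidence. The 9 salt libraries differed from the 3 control libraries by a mean of -1.24 (exact permutation p = 0.00909 over 220 arrangements, adjusted over 3 such tests 0.0136). The 9 dehydration libraries differed from the 3 controls by -0.34 (exact permutation p = 0.377). Exchanging salt and dehydration labels within each hour gave a difference of -0.89 (exact permutation p = 0.00225 over 8000 arrangements, adjusted 0.00675). At a single hour, 3 libraries against 3 cannot give an exact p below 0.1, so none is given there. These tests exchange libraries freely across lanes, although 7 of the 9 salt libraries and no control or dehydration library came from lane 2.

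Where a lane held both groups, the values could be set side by side without lane between them. At 12 hr of salt the library in lane 3 held 20.3 CPM, against 38.0 CPM in the control of that lane, and the library in lane 4 held 23.1 CPM, against a mean of 52.4 CPM in the 2 controls there. The salt library in lane 4 also lay below the mean of 48.9 CPM of the 3 dehydration libraries of 12 hr in that lane. The within-lane log2 differences were -0.90 and -1.09 from control and -1.02 from dehydration, each resting on 1 salt library and with no test. At 1 and 6 hr of salt there was no control in lane 2 to set beside the salt libraries, and the fit with lane as a term, given above, had wide errors there.

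The level of GmSALT3 was then compared between successive hours within each stress, and none of the 4 comparisons was called. Salt at 6 hr differed from salt at 1 hr by 0.41 (SE 0.39, 95% interval -0.4 to 1.22, adjusted p 0.542), where 6.61% of the tested genes were called, and salt at 12 hr from salt at 6 hr by -0.12 (SE 0.39, 95% interval -0.93 to 0.7, adjusted p 0.927), where 0.144% were called (edgeR). Both differences changed sign without salt replicate 3 of 6 hr, to -0.23 and 0.52. Dehydration at 6 hr differed from dehydration at 1 hr by -0.11 (SE 0.38, 95% interval -0.91 to 0.7, adjusted p 0.913), where 4.02% were called. Dehydration at 12 hr lay above dehydration at 6 hr in all 3 libraries, as 10.5% of the tested genes had no overlap there, by 0.65 (SE 0.38, 95% interval -0.15 to 1.45), but with an adjusted p of 0.985 (edgeR), and 0.0436% of the tested genes were called there.

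The 5 gene models on each side of GmSALT3 by ID were examined next, since neighbouring models can share reads where they overlap, which was not tested. The files pair these IDs with no name, so they are given by ID only. Of these 10 models, 9 passed the filter, and Glyma03g32920, with at most 5 counts in a library, did not. Their median log2 fold changes against control were -0.02, -0.21 and -0.02 at 1, 6 and 12 hr of salt, and 0.33, 0.15 and -0.12 at 1, 6 and 12 hr of dehydration, so the median neighbour lay near 0 at 1 and 12 hr of salt. Over all tested genes these medians lay between -0.04 and 0.03.

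The model just before GmSALT3, Glyma03g32890, moved the other way. It held 3.46, 13 and 7.48 CPM at 12 hr of salt, against 2.33, 2.04 and 2.34 CPM in controls. Every salt library lay above every control, where 37.3% of the tested genes had no overlap. The log2 fold change was 1.85 (SE 0.53, adjusted p 0.0233, edgeR), so it was called as upregulated, and against 12 hr of dehydration, with 2.67, 2.07 and 0.772 CPM, it was 2.08 (SE 0.56, adjusted p 0.0193). The counts were low, 16, 122 and 63 in salt roots and 17, 18 and 21 in controls, and the call against control was lost without salt replicate 2 of 12 hr (1.31, adjusted p 0.151) or any 1 of the controls (adjusted p 0.0566 to 0.075), and the call against dehydration without salt replicate 2 or dehydration replicate 2 or 3 of 12 hr (adjusted p up to 0.111) and with lane as a term (2.19, adjusted p 0.0528). Among the salt libraries of 12 hr, replicate 2 was highest for this gene, and replicate 1 was lowest for both this gene and GmSALT3.

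The model just after, Glyma03g32910, held 30.0, 35.3 and 35.8 CPM at 12 hr of salt, against 44.6, 39.7 and 40.9 CPM in controls, and it was called in none of the comparisons. Its log2 fold changes at 1, 6 and 12 hr of salt were 0.19, -0.02 and -0.31, with adjusted p of 0.638, 0.959 and 0.183 (edgeR). Further out, Glyma03g32880 was downregulated at 6 hr of salt, with 17.2 ± 2.96 CPM against 34.6 ± 5.71 CPM in controls (-1.02, SE 0.29, adjusted p 0.0294, edgeR). Of 11 alternatives 5 lost the call, lane as a term on the adjusted p (-1.64, 0.225) and the others on the fold limit (-1 to -0.99). It was also lost in 5 of 21 fits without 1 library, with adjusted p of 0.05 to 0.0976. Against 6 hr of dehydration it was called too (-1.05, SE 0.29, adjusted p 0.0166, edgeR). That call was lost with lane as a term (-1.68, adjusted p 0.155) and without salt or dehydration replicate 3 of 6 hr (adjusted p up to 0.067). Glyma03g32940 was downregulated at 1 hr of dehydration, with 16.1 ± 2.45 CPM against 36.0 ± 6.42 CPM in controls (-1.16, SE 0.26, adjusted p 0.0227), a call lost without control replicate 1 or dehydration replicate 2 or 3 of 1 hr (adjusted p up to 0.115) and with lane as a term (-1.10, adjusted p 0.163). At 12 hr of salt, where 5.18% of the tested genes were called as downregulated, 0 of the 9 neighbours were. Glyma03g32940 lay at -0.96 there (SE 0.26, adjusted p 0.0162, edgeR), short of the 2-fold limit.

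**Figure D3:**
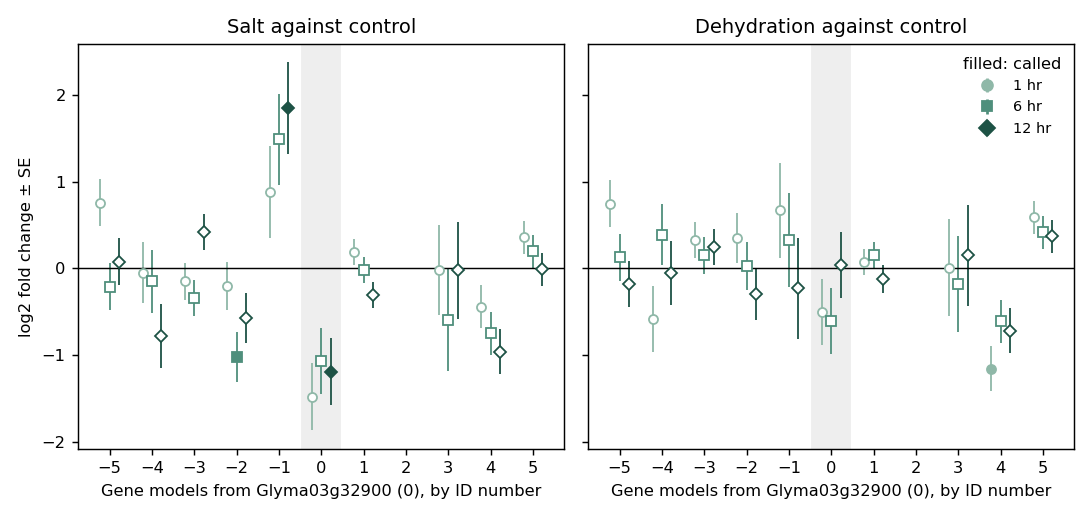
Log2 fold change against control (vertical axis, ± SE from edgeR) of GmSALT3 at position 0 and of the 9 tested gene models around it in ID order (horizontal axis), salt in the left panel and dehydration in the right panel, at 1, 6 and 12 hr. Filled points were called DE. Under salt GmSALT3 lies at -1.48, -1.07 and -1.19, while the model just before it reaches 1.85 at 12 hr and the model just after stays between -0.31 and 0.19.

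Across the 21 libraries, the log2 CPM of GmSALT3 was set against that of each of the 36690 other tested genes. Pearson's r lay between -0.54 and 0.50 for the middle 90% of these genes, with a median of 0.03. The libraries share treatment, lane and depth, so r is given as a description of likeness. The neighbours above had r between -0.64 (Glyma03g32890) and 0.37 (Glyma03g32880), so none of them was among the genes most like GmSALT3.

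The 5 genes most like it were Glyma14g13790 (r 0.83), Glyma05g27500 (0.81), Glyma07g11590 (0.80), Glyma15g02080 (0.80) and Glyma02g05260 (0.79). They differ in level and in size of response, and Glyma15g02080 rests on only 2 to 20 counts per library. Within groups, over the deviations from each group mean, their r was 0.64, 0.57, 0.72, 0.54 and 0.69 in the same order, which the choice of these genes over the same libraries favours. By Spearman's rank correlation all 5 stayed among the 100 genes most like GmSALT3, and by the 7 group means 3 of 5 did.

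Of these 5, Glyma02g05260 was the most abundant, and at 6 and 12 hr of salt it had the lowest log2 fold change. It held 39.3, 19.9 and 40.8 CPM at 12 hr of salt, against 105, 176 and 97.2 CPM in controls, a log2 fold change of -1.92 (adjusted p 0.00308, edgeR) with no overlap, as in 37.3% of the tested genes. At 6 hr of salt it held 21.1, 33.8 and 67.7 CPM (-1.61, adjusted p 0.0107), with its highest value in replicate 3. That call was lost without control replicate 2 (adjusted p 0.0529), with only the 6 libraries compared (0.0821) and with lane as a term (-1.95, adjusted p 0.252). Glyma05g27500 held 11.4, 14 and 13.8 CPM at 12 hr of salt, against 32.9, 32.8 and 23.4 CPM in controls (-1.18, adjusted p 0.00374). Both were also lower at 12 hr of salt than at 12 hr of dehydration, with log2 differences of -1.45 (adjusted p 0.0166, lost without salt replicate 2 or dehydration replicate 3 of 12 hr, adjusted p up to 0.0859) and -1.24 (adjusted p 0.00333). Both of these calls were lost with lane as a term (-1.41, adjusted p 0.0879, and -1.05, adjusted p 0.0646). The other 3 genes were called in none of the 9 comparisons with control or between stresses. All 5 were chosen by r over these same libraries, where GmSALT3 was low under salt. That choice favours calls in the same direction, so the calls are given as a description.

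The 3 genes with the most opposite pattern were Glyma16g34000 (r -0.84), Glyma18g20470 (-0.82) and Glyma20g26690 (-0.81). Glyma18g20470 held 8.43, 10.9 and 20 CPM at 1 hr of salt, 33.4, 27.6 and 6.58 CPM at 6 hr and 21.4, 17.7 and 10.4 CPM at 12 hr, against 2.19, 1.14 and 3.57 CPM in controls. The log2 fold changes from control were 2.49, 3.26 and 2.82 at 1, 6 and 12 hr (adjusted p 0.0236, 0.00128 and 0.00214, edgeR). At these hours of salt, 1.6%, 9.66% and 12.4% of all tested genes were called. The call at 1 hr was lost without control replicate 1 or 2 or salt replicate 3 (adjusted p up to 0.134), and those at 1 and 6 hr with lane as a term (1.79, adjusted p 0.753, and 2.56, adjusted p 0.256). Glyma16g34000 had between 0 and 92 counts per library, with 3.89, 4.80 and 1.42 CPM at 12 hr of salt and 0.137, 0 and 0.669 CPM in controls, and was called as upregulated there (adjusted p 0.0149), a call lost without salt replicate 2 of 12 hr or control replicate 1 or 2 (adjusted p up to 0.0649). Glyma20g26690 was called in none of these comparisons, and 0 of the 8 genes were called under dehydration, where 2.59%, 2.03% and 2.01% of all tested genes were called at 1, 6 and 12 hr. The choice of the 8 genes by r over these same libraries favours both calls under salt and their absence under dehydration.

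**Figure D4:**
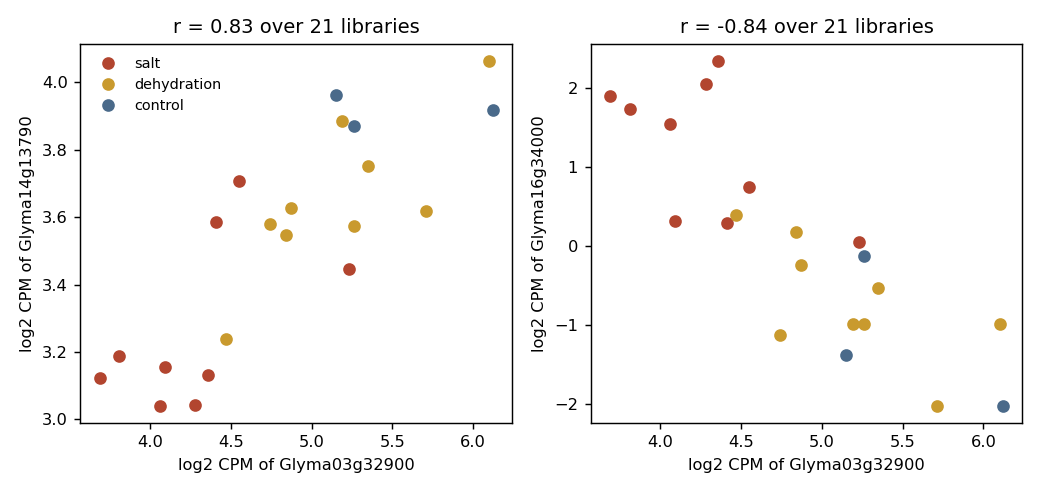
Log2 CPM of GmSALT3 (horizontal axis) against log2 CPM of Glyma14g13790, the most alike gene (r 0.83, left panel), and of Glyma16g34000, the most opposite gene (r -0.84, right panel), vertical axes. Each point is 1 of the 21 libraries, coloured by salt, dehydration or control. Salt libraries lie towards the low end of GmSALT3 in both panels, and control and dehydration libraries overlap each other.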

How the data were processed

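The authors deposited raw counts for 62537 gene models, made from 50 bp single-end reads that GSNAP had placed at 1 site with at most 4 mismatches. They also deposited normalized signal values, made with DESeq 1.7.10, which equal the counts over 1 size factor for each library. The counting program and its use of strand are not given in the sources used here, so overlapping and near-identical genes are uncertain.

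The counts of all 21 libraries were filtered with filterByExpr (36691 genes), TMM-normalized and fitted with edgeR 4.0.16 (limma 3.58.1, R 4.3.3) by glmQLFit (robust) with the 7 groups as the only term. Contrasts were tested by glmQLFTest, with Benjamini-Hochberg adjustment over all tested genes. Log2 CPM for r used a prior count of 2. The edgeR p-values weigh a difference between groups against the spread of replicate libraries, estimated over all 7 groups with information shared across genes.

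The gene and every list were chosen with earlier results of these data known. The genes named are GmSALT3, 5 gene models on each side by ID, and by Pearson's r the 5 most alike and 3 most opposite genes. Alternatives were DESeq2's size factors and Wald test (DESeq2 1.42.0), a mean of 1 CPM or nothing as the filter, only the 6 libraries compared, lane or replicate number as a term, limma on log2 normalized values plus 1 or 0.1, no fold limit, thinning of the deepest library, within-lane values, and each library left out. Lists of ion transport genes and tissue markers were not analysed here, since the gene table matched none of the IDs, so the root and vascular identity of the samples was not checked. Sequences were not used here. The edgeR code was tested on simulated data.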

Additional observations from a re-analysis of the deposited data

Results flagged for a closer look

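GmSALT3 was called as different between the stresses at 12 hr by a test of the difference itself. The log2 difference of salt from dehydration was -1.22 (adjusted p 0.0411, edgeR), with 20.9 ± 2.03 CPM in salt roots and 48.9 ± 16.7 CPM in dehydration roots. The difference was not called at 1 hr (-0.97) or 6 hr (-0.46), and the differences at the 3 hours were not tested against each other. The call at 12 hr was lost without any 1 of the 6 libraries compared. It was also lost with lane as a term (-1.0, adjusted p 0.239, edgeR).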

How the results depend on the processing

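The decline at 12 hr of salt kept its direction against control and against dehydration under every alternative tried, but its side of the threshold changed with small shifts. Of 11 alternatives other than leaving out single libraries, 6 called it against control and 8 against dehydration. Both counts include no fold limit, which could not lose a call. Against control it was lost with no filter (-1.20, adjusted p 0.0502), with lane (-1.06, 0.148), and with limma on normalized values plus 1 (-1.08, 0.0542) or 0.1 (-1.09, 0.0577). Against dehydration it was lost with no filter (-1.22, 0.0529) and with lane (-1.0, 0.239). With the replicate block it was lost at -1.21 against control (0.053) and -1.21 against dehydration (0.0575), and the block left 4048 genes called at 12 hr of salt against 4535 without it. The numbers were not treated as pairs, since only 4 of 27 same-number pairs deviated together with r over 0.1 (range -0.38 to 0.31). DESeq2's Wald test called GmSALT3 at 1 hr (-1.46, 0.0111) and 6 hr of salt (-1.07, 0.0448), as did limma plus 1 at 6 hr (-1.17, 0.0477).

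Leaving out single libraries gave -1.36 to -0.81 at 12 hr of salt against control (called in 14 of 21 fits), -1.64 to -1.10 at 1 hr (2 of 21, without salt replicate 3 of 6 hr or dehydration replicate 1 of 1 hr), -1.71 to -0.70 at 6 hr (1 of 21), -1.37 to -0.90 at 12 hr of salt against dehydration (14 of 21) and -1.10 to -0.20 at 6 hr (1 of 21). Small differences changed sign. At 12 hr of dehydration against control they ran from -0.29 to 0.41, with -0.06 with lane and -0.07 within lane 4. Between hours they ran from -0.33 to 0.34 for dehydration at 6 against 1 hr, -0.23 to 0.65 for salt at 6 against 1 hr and -0.37 to 0.52 for salt at 12 against 6 hr, the last also 0.08 and 0.09 with limma plus 1 and 0.1. Averaged over hours, salt against control ran from -1.46 to -0.87 (called in 20 of 21, lost without control replicate 2 with adjusted p 0.131) and was -1.04 with lane, dehydration against control from -0.54 to 0.01, and salt against dehydration from -1.10 to -0.72. The causes were not tested.

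Counts of called genes moved by more than 1.5 times between these 11 alternatives. Under salt they ran from 0 to 1281 at 1 hr (586 as reported), 33 to 4732 at 6 hr (3543) and 2759 to 6200 at 12 hr (4535). Under dehydration they ran from 87 to 1733 at 1 hr (949 as reported), 318 to 1447 at 6 hr (745) and 531 to 1328 at 12 hr (738). Between stresses they ran from 0 to 8189 at 6 hr (5380) and 1391 to 5690 at 12 hr (4249). Every lower end came from the fit with lane as a term. The upper ends of 4732, 6200, 8189 and 5690 came from counting without the fold limit, a looser rule, and the other upper ends from DESeq2's Wald test. Leaving out single libraries gave as few as 66, 1871 and 2760 genes at 1, 6 and 12 hr of salt and 211, 241 and 326 at 1, 6 and 12 hr of dehydration. The counting error of GmSALT3 was 4.05% to 14% per library. At 12 hr of salt it averaged 8.49%, close to the coefficient of variation of 9.74% between the replicates.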
